A study of Homo sapiens with 6 samples.

Results

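The clustered histone genes were taken as all entries whose symbol starts with HIST1H, HIST2H, HIST3H or HIST4H. There were 73 such genes among 25737 entries with 24462 different symbols, and each of the 73 symbols had 1 row. The symbol gives the cluster and the protein class. The HIST1 cluster on chromosome 6 held 56 of them, the HIST2 and HIST3 clusters on chromosome 1 held 13 and 3, and HIST4H4 was the single member on chromosome 12. By the class in the symbol, pseudogenes included, 6 belonged to the linker histone H1, 18 to H2A, 20 to H2B, 14 to H3 and 15 to H4. In GENCODE release 29, 70 were annotated as protein-coding and 3 (HIST2H2BA, HIST2H2BC and HIST1H2APS1) as pseudogenes.

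Histones H2A, H2B, H3 and H4 form the protein core around which DNA is wrapped, and H1 binds the DNA that links these cores. The clustered genes supply histones to cells that copy their DNA, and most of their mRNAs carry no poly(A) tail. Their 3′ end is instead cut behind a short stem-loop that is bound by SLBP, the stem-loop binding protein. Some clustered genes can also give polyadenylated mRNAs, and only these are primed by an oligo(dT) kit, apart from A-rich stretches inside a transcript. Replication-independent histones such as H2AFZ and H3F3B lie elsewhere in the genome and have ordinary polyadenylated mRNAs. The counts below therefore describe the polyadenylated or internally primed share of histone mRNA and not the whole pool.

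The RNA came from A549, an established line of lung carcinoma cells, and from BEAS-2B, an immortalized line made from the epithelium of the bronchus, both labeled wild type. Each line was left untreated or was exposed to 1 or 5 ng/mL of TGF-β1, a cytokine that drives fibrosis and that the study used for this reason, for 48 h. Libraries were made with a QuantSeq 3′ kit that reads the end of each mRNA, and the files hold unnormalized counts per gene. Treated cells received TGF-β1 in medium with less serum than the growth medium, and the medium of the untreated cells is not given in the labels, so the cytokine and a change of serum cannot be told apart. Each condition had 1 library, so no difference could be checked against replicates and no p-value is given.

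Library totals ran from 4120624 to 7841350 counts, and the A549 library at 1 ng/mL was the deepest. Counts were scaled by TMM factors to a common library size, and the ND value is log2 of the scaled count plus 1. Intervals are exact 95% Clopper-Pearson intervals for ratios and shares and exact Poisson intervals for scaled counts. They cover counting error only and no variation between cultures or libraries, since each condition had 1 library. Reads were not collapsed to molecules, so the intervals may be too narrow even for counting error. In the following, higher and lower mean that the interval of the ratio excludes 1. The 5 keratin and adhesion genes marking epithelium summed to 11530 to 21434 counts in A549 and 926 to 1838 in BEAS-2B. Nearly all of these counts came from KRT8 and KRT18. At 0, 1 and 5 ng/mL the adhesion gene CDH1 had 640, 30 and 8 counts in A549 and 2, 0 and 2 in BEAS-2B. EPCAM had 49, 7 and 2 counts in A549 and 0 in every BEAS-2B library. The bronchial basal genes KRT5, KRT14 and TP63 summed to 3 to 8 in A549, all from TP63, and to 0 to 1 in BEAS-2B. KRT14 was at 0 in all libraries. The 4 alveolar type II genes summed to 1 to 3 in A549 and 1 to 8 in BEAS-2B. Among them NKX2-1 was at up to 8, SFTPB at up to 2, and SFTPA1 and SFTPC at 0. A list of 5 markers of leukocytes, endothelium and blood summed to 52 to 84 counts in A549 and 8 to 26 in BEAS-2B, of which the macrophage marker CD68 gave 4 to 73, and VWF was at 0.

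Sequence features of the members bear on which of them an oligo(dT) kit can see, so the 3′ stem-loops of annotated members are shown first. The motif searched was a stem of 6 bases closed by a loop of 4 bases. The stem had to begin with GG and end with CC, the loop had to begin with TTT, and G-T pairs were allowed. Where a coding sequence is annotated, only motifs behind it were taken. In capitals are the 2 arms of the stem, read 5′ to 3′ on the transcript strand, with 5 bases on each side. The genes' positions are from GRCh38, while the submitters' processing notes name hg19 for the reads, so they locate the genes rather than the intervals in which reads were counted.
HIST2H2AA4 (chr1:149851061-149851624, plus strand): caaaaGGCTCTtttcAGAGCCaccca
HIST1H2BD (chr6:26158146-26171349, plus strand): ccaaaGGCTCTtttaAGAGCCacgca
HIST1H2BC (chr6:26114873-26123926, minus strand): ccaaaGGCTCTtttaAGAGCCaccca
HIST2H2BE (chr1:149884459-149886652, minus strand): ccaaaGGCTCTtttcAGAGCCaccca
HIST1H2AI (chr6:27808199-27808701, plus strand): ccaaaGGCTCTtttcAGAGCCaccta
HIST1H4J (chr6:27824108-27824480, plus strand): taaaaGGCCCTtttcAGGGCCaccct

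All 6 lie in the 3′-UTR, 22 to 67 bases behind the stop codon, and differ in the loop, in 1 base pair of the stem and in the flanks. They were picked because their genes recur below, and HIST1H2BC and HIST1H2BD share stem and loop. A stem-loop was found in the models of 32 of 73 members, most often, in 17, with the stem and loop of HIST2H2AA4. A poly(A) signal of the form AATAAA followed the stem-loop in 19 of the 32. It came 13 bases behind the stem-loop in HIST2H2AA4, 12 bases behind it in HIST1H2BD, and 1705 bases behind it in HIST2H2BE, whose model runs on for 1729 bases. In HIST1H2BC, HIST1H2AI and HIST1H4J no AATAAA followed within the model. For 34 members, HIST1H1C, HIST1H1D, HIST1H2BK and HIST1H2AJ among them, the model ends at the stop codon, so their 3′ ends could not be examined.

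A-rich stretches can be primed by oligo(dT) without a poly(A) tail. The window of 20 bases with the most A is shown for the 3 members with the highest counts, with A in capitals.
HIST1H4C (chr6:26103876-26104310, plus strand): AAAAAAcAAAAAcAAAAAAA
HIST1H1C (chr6:26055787-26056428, minus strand): ctAAgAAAAcAccgAAgAAA
HIST1H1D (chr6:26234268-26234933, minus strand): gAAgAAAAgcAtcAAAAAgA

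The HIST1H4C window holds 18 A and forms the last bases, 416 to 435, of its 435-base model, in the 3′-UTR. The windows of HIST1H1C and HIST1H1D hold 12 and 13 A and lie in the coding sequence, where the lysine-rich tail of H1 is encoded. HIST1H4C runs past the stop codon in its model without a complete stem-loop, as do 4 other coding members. Windows with at least 14 A occurred in 11 of 73 members (15.1%), whose models run from 297 to 6440 bases. Among protein-coding transcripts of 300 to 800 bases, such a window was found in 3 of 56 (5.36%) from histone members and in 2656 of 23756 (11.2%) from all genes. HIST1H2BG has a window made of 20 A, yet it had at most 2 counts in any library. Over all 73 members, Spearman's rho between the most A in a window and log2 of the mean scaled count plus 1 was 0.14, a description over genes that share libraries. Whether reads began at these stretches was not tested.

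The members together took between 0.112% and 0.157% of all counts. Their summed counts were 6328, 10153 and 8266 in A549 at 0, 1 and 5 ng/mL and 6278, 5135 and 6485 in BEAS-2B. These are 0.153%, 0.129% and 0.135% of the counts in A549 and 0.148%, 0.112% and 0.157% in BEAS-2B. The reads were spread very unevenly over members. HIST1H4C alone held 29830 of 42645 member counts (69.9%), and the 7 members that reached an ND value of 7 in at least 1 library held 94.5%. A further 6 peaked at 54 to 126 counts, 12 at 11 to 42 and 37 at 1 to 9. The remaining 11, namely HIST1H1T, HIST1H2AA, HIST1H2AK, HIST1H2APS1, HIST1H2BA, HIST1H2BB, HIST1H3E, HIST1H3I, HIST1H4A, HIST1H4G and HIST3H3, had 0 counts in all 6 libraries. In ratios a 0 was given a floor of 3 counts, which is 3.48 scaled counts in untreated A549. The exact interval of a 0 reaches 4.27 scaled counts in that library. Between 31 and 45 members had any read in a library, with the lowest number in untreated A549. Reads of a 3′ kit come from the end of the molecule, so counts were not divided by transcript length, and all comparisons between members are of scaled counts.

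**Figure D1:**
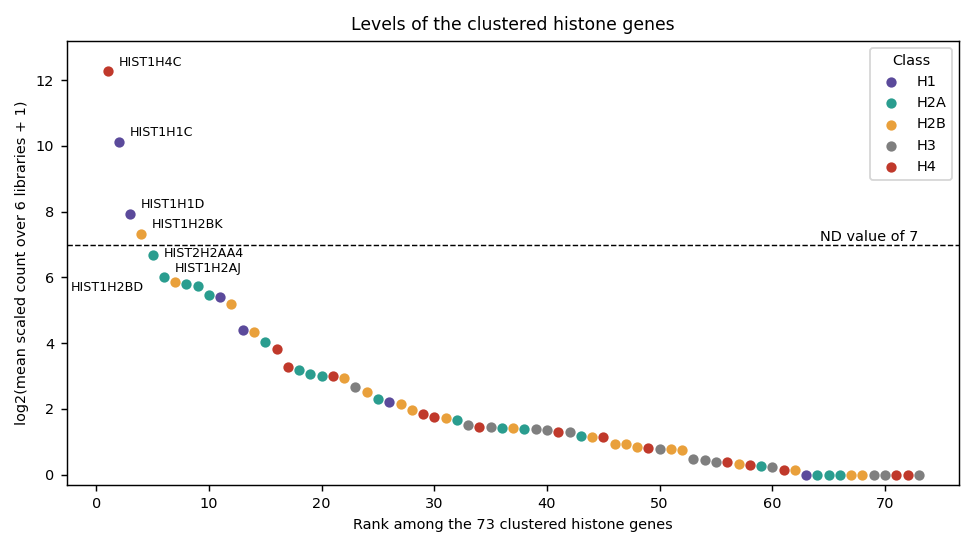
Each point is 1 of the 73 clustered histone genes, ranked by its mean over the 6 libraries; the vertical axis is log2 of the mean scaled count plus 1, colors give the protein class, and the dashed line is an ND value of 7. HIST1H4C and HIST1H1C stand far above the rest, no H3 gene is among the first 20, and 11 genes lie at 0.

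**Figure D2:**
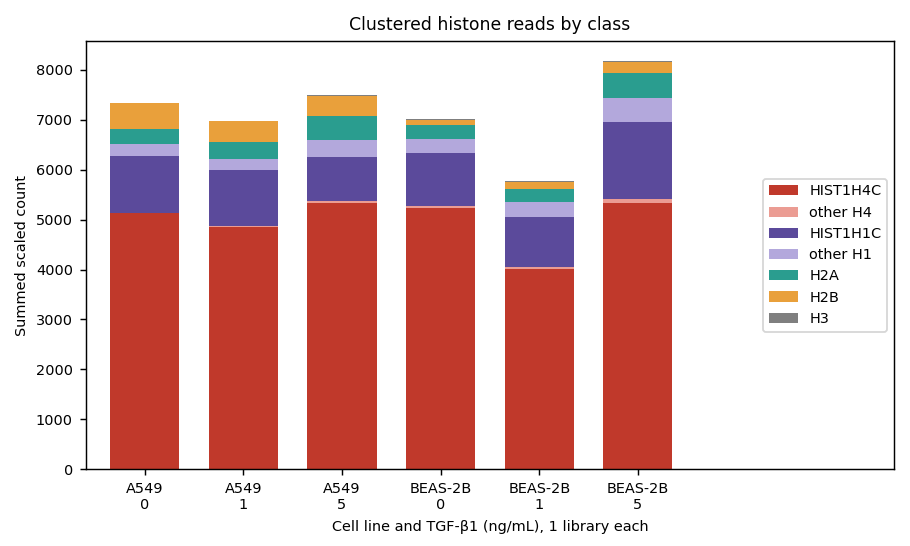
Bars show the summed scaled count of the members in each library (1 library per cell line and dose), split by class, with HIST1H4C and HIST1H1C apart. HIST1H4C fills 65.3% to 74.7% of each bar, and H3 is barely visible.

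Among the H4 genes, which encode the same core protein from many loci, almost all reads fell on HIST1H4C. Its scaled counts were 5122, 4847 and 5323 in A549 at 0, 1 and 5 ng/mL. In BEAS-2B they were 5231, 4007 and 5336. The untreated lines were thus alike, and the libraries at 5 ng/mL lay close to their controls, while the BEAS-2B library at 1 ng/mL was the lowest of all. At 5 ng/mL the ratio to the control was 1.04 (0.999 to 1.08) in A549 and 1.02 (0.978 to 1.06) in BEAS-2B, and scaling to total counts turned both log2 FC values to -0.15 and -0.10. At 1 ng/mL it was 0.946 (0.911 to 0.983) in A549 and 0.766 (0.733 to 0.8) in BEAS-2B. The 14 other H4 genes summed to only 15, 38 and 44 counts in A549 and 29, 47 and 55 in BEAS-2B. Those small sums were higher at 5 than at 0 ng/mL in both lines, 2.3-fold (1.25 to 4.44) in A549 and 2.14-fold (1.34 to 3.48) in BEAS-2B. Of these, HIST1H4H had 0, 2 and 5 counts in A549 and 16, 1 and 22 in BEAS-2B. HIST1H4J, whose stem-loop is shown above, had 7 to 19 counts in every library.

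The linker histone HIST1H1C, which encodes H1.2, was the second most abundant member. Its scaled counts were 1128, 1113 and 892 in A549 and 1062, 995 and 1539 in BEAS-2B. The untreated lines overlapped within counting error (ratio 1.06, 0.971 to 1.16), and the libraries at 5 ng/mL moved apart. At 5 ng/mL it was 1.27-fold lower (1.16 to 1.38) than the control in A549 and 1.45-fold higher (1.33 to 1.58) in BEAS-2B. HIST1H1D, which encodes H1.3, had scaled counts of 207, 190 and 303 in A549 and 224, 234 and 311 in BEAS-2B. It was higher at 5 ng/mL in both lines, with ratios of 1.46 (1.21 to 1.76) and 1.39 (1.15 to 1.68), and at 1 ng/mL both intervals held 1.

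The other H1 genes were sparse. HIST1H1E (H1.4) had scaled counts of 26.6, 30.9 and 24.5 in A549 and 23.4, 33.8 and 108 in BEAS-2B. Only the BEAS-2B library at 5 ng/mL stood out, 4.62-fold (2.84 to 7.85) above its control. HIST1H1B (H1.5) had 7, 1 and 1 counts in A549 and 28, 10 and 54 in BEAS-2B. In BEAS-2B it was 2.78-fold (1.31 to 6.4) lower at 1 ng/mL and 2.18-fold (1.36 to 3.57) higher at 5 ng/mL. The A549 ratio at 5 ng/mL was 0.112 with a wide interval (0.00248 to 0.871), since it rests on 1 count. HIST1H1A (H1.1) had 0 counts in the 3 A549 libraries and 7, 7 and 5 in BEAS-2B. With the 0 set to the floor of 3 counts, the ratio of untreated BEAS-2B to untreated A549 is 2.25, a value set by that floor. The counting interval, taken from the counts of 7 and 0, starts at 1.39-fold. The testis gene HIST1H1T was at 0 in all 6 libraries.

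Of the H2A genes, HIST2H2AA4 had the most reads. Its scaled counts were 129, 172 and 181 in A549 and 31.2, 46.1 and 51.6 in BEAS-2B. All A549 libraries lay above all BEAS-2B libraries. HIST2H2AA3 repeated this order with 64.9, 86.6 and 96.2 in A549 and 17.8, 21.4 and 26.5 in BEAS-2B. The coding sequences of HIST2H2AA3 and HIST2H2AA4 are 100% identical over 393 bases and their 118-base 3′-UTRs are equal, so reads cannot be assigned between them with certainty. HIST2H2AA4 nevertheless had 1.75 to 2.16 times the counts of HIST2H2AA3 in every library. How multiply mapped reads were counted is not given in the sources used here. Summed, the pair was higher at 5 ng/mL in both lines, with ratios of 1.43 (1.18 to 1.74) in A549 and 1.59 (1.06 to 2.4) in BEAS-2B.

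HIST1H2AJ and HIST1H2AI showed the opposite order of the lines. The scaled counts of HIST1H2AJ were 24.3, 18.6 and 44.5 in A549 and 82.5, 69.8 and 140 in BEAS-2B. Those of HIST1H2AI were 8.11, 15.1 and 30.8 in A549 and 62.5, 38.3 and 103 in BEAS-2B. Every BEAS-2B library lay above every A549 library for both genes, and in both lines the library at 5 ng/mL was the highest. Their coding sequences are 97.9% identical over 387 aligned bases, so shared reads are possible here too. The pair summed to a ratio of 2.32 (1.5 to 3.7) at 5 ng/mL in A549 and 1.68 (1.34 to 2.11) in BEAS-2B. HIST2H2AC had scaled counts of 41.7, 39.2 and 60.8 in A549 and 40.2, 45 and 99.5 in BEAS-2B. It was higher in BEAS-2B at 5 ng/mL, 2.48-fold (1.65 to 3.78), and its interval held 1 in A549 (1.46, 0.958 to 2.25). HIST2H2AB, which overlaps BOLA1 on the other strand in the annotation, had 7, 15 and 33 counts in A549 and 8, 3 and 26 in BEAS-2B. Its ratio at 5 ng/mL was 3.69 (1.61 to 9.89) in A549 and 3.67 (1.61 to 9.38) in BEAS-2B. Taken as a class, H2A reads at 5 ng/mL exceeded the control 1.62-fold (1.4 to 1.89) in the carcinoma line and 1.8-fold (1.53 to 2.12) in the bronchial line.

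**Figure D3:**
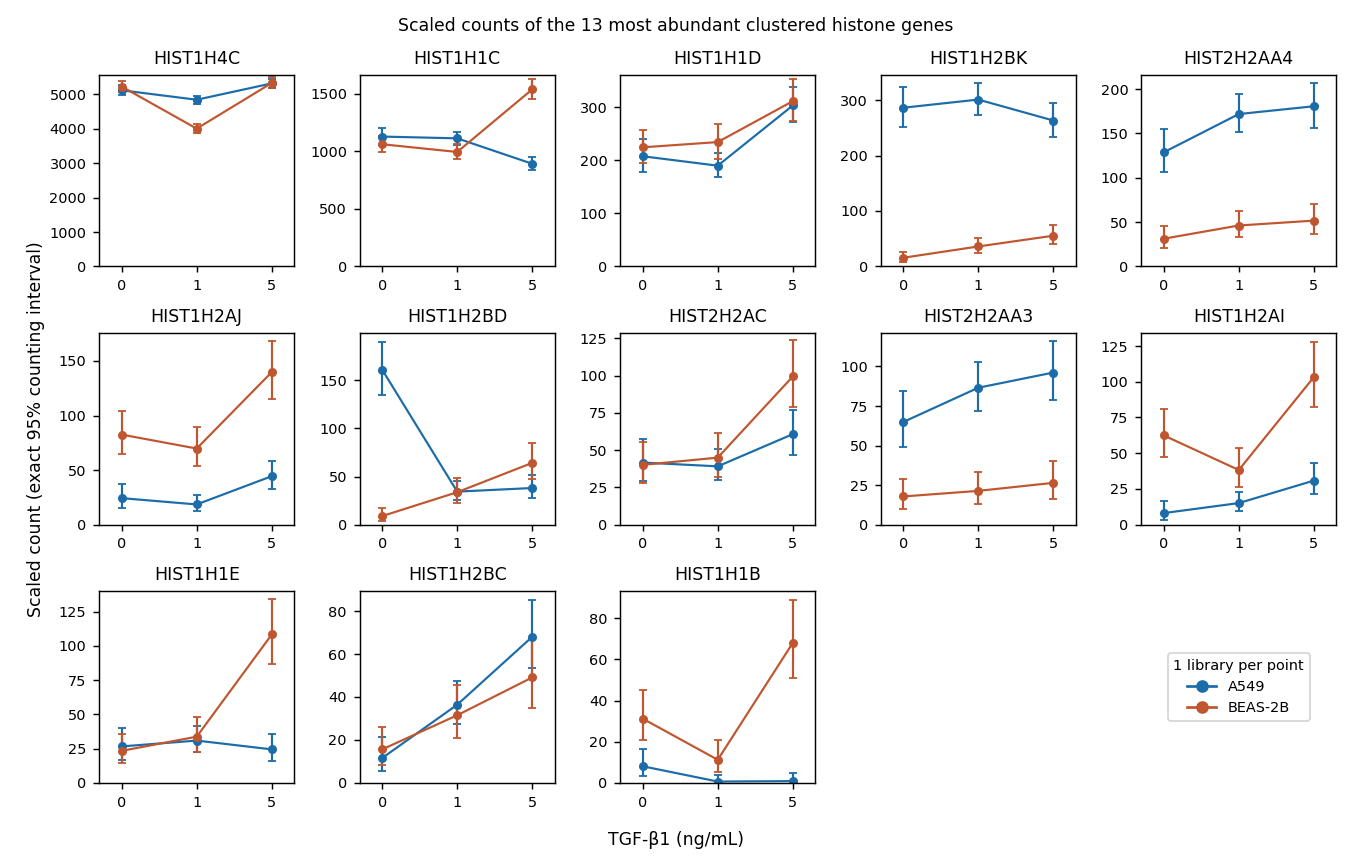
Each panel shows the scaled count of 1 of the 13 most abundant members against TGF-β1 dose (ng/mL, categories evenly spaced), with 1 library per point, lines joining the libraries of a cell line and bars giving exact 95% counting intervals. HIST1H2BD starts at 161 in A549 and 8.92 in BEAS-2B and the lines cross, while HIST1H2BC lies above its control at both doses in both lines.

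The H2B genes differed most between the lines. HIST1H2BK had scaled counts of 286, 301 and 263 in A549 and 15.6, 36 and 55.4 in BEAS-2B. Its lowest A549 value was far above its highest BEAS-2B value. In untreated cells it was 18.3-fold (10.7 to 34) higher in A549. With TGF-β1 the A549 counts differed from the control by less than counting error, at a ratio of 0.919 (0.773 to 1.09) for 5 ng/mL, whereas BEAS-2B was 2.31-fold (1.2 to 4.68) higher at 1 ng/mL and 3.55-fold (1.91 to 7.01) higher at 5 ng/mL.

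HIST1H2BD was the only 1 of the 13 most abundant members whose FC had opposite directions in the lines at both doses. Its scaled counts were 161, 34.4 and 38.1 in A549. In BEAS-2B they were 8.92, 33.8 and 64.2. The untreated libraries were thus the highest and the lowest of the 6, and the libraries at 1 ng/mL were nearly equal. In A549 it was 4.69-fold (3.37 to 6.61) lower at 1 ng/mL and 4.23-fold (2.97 to 6.12) lower at 5 ng/mL. In BEAS-2B it was 3.78-fold (1.69 to 9.55) higher at 1 ng/mL and 7.2-fold (3.39 to 17.6) higher at 5 ng/mL. The annotation lists 2 transcripts for HIST1H2BD, and the longer model has 2 exons and a 14-A window in its 3′-UTR. In the same span it places LARP1P1 on the same strand and AL353759.1 on the other strand. The share of reads from these overlapping genes was not tested.

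HIST1H2BC and HIST2H2BE each kept 1 direction in both lines. HIST1H2BC had scaled counts of 11.6, 36.4 and 68 in A549 and 15.6, 31.5 and 49.1 in BEAS-2B. The order of the doses was the same in each line. At 5 ng/mL the ratios were 5.87 (3.02 to 12.7) and 3.15 (1.67 to 6.27), on 75 against 10 and 39 against 14 counts. HIST2H2BE, whose annotated mRNA runs far past its stem-loop, had 42, 22 and 20 counts in A549 and 20, 8 and 2 in BEAS-2B. It was lower at either dose in both lines, 2.68-fold (1.54 to 4.82) in A549 at 5 ng/mL, and in BEAS-2B at 5 ng/mL by a ratio of 0.113 (0.0128 to 0.465) that rests on 2 counts. The remaining H2B genes peaked at 18 counts or fewer. HIST1H2BF, among them, had 0, 0 and 3 counts in A549 and 2, 6 and 13 in BEAS-2B. The class sum in untreated cells was 5.16-fold (4.11 to 6.54) higher in A549, and HIST1H2BK and HIST1H2BD made up most of it.

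The H3 genes were almost absent from these libraries. All 14 together gave 8, 10 and 22 counts in A549 and 10, 25 and 14 in BEAS-2B, at most 0.487% of the member counts. HIST1H3C was the only H3 gene that reached 10 counts, with 12 in A549 at 5 ng/mL. HIST2H3A and HIST2H3C have identical coding sequences and lie opposite HIST2H4B and HIST2H4A in the annotation, and none of these 4 genes exceeded 7 counts. The interval of the ratio at 5 ng/mL to the control held 1 in both lines (2.15, 0.923 to 5.59 in A549 and 1.58, 0.653 to 3.98 in BEAS-2B). On these few reads the sum was higher in BEAS-2B at 1 ng/mL than in its control (2.52-fold, 1.17 to 5.88), and higher in A549 at 5 than at 1 ng/mL (2.91-fold, 1.32 to 6.87).

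Some sparse members had nearly all of their reads in 1 line or 1 library. HIST1H2AE had 1, 0 and 0 counts in A549 and 10, 11 and 14 in BEAS-2B, and HIST1H2BH had 0 in the A549 libraries and 6, 5 and 4 in BEAS-2B. HIST3H2A had 0, 0 and 2 counts in A549 and 7, 0 and 0 in BEAS-2B. With the 0 set to the floor of 3 counts, HIST3H2A was 2.07-fold lower at 5 ng/mL than in the BEAS-2B control, a value set by that floor. The counting interval, taken from the counts of 0 and 7, starts at 1.28-fold. HIST1H2AL (9 counts) and HIST1H4F (7 counts) had reads only in BEAS-2B, at 1 and 5 ng/mL respectively, and HIST3H2BB (6 counts) only in A549 at 5 ng/mL.

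To compare the whole group between doses, the summed scaled counts were compared first. They were 7332, 6976 and 7499 in A549 and 7002, 5778 and 8168 in BEAS-2B. In A549 the sum at 5 ng/mL differed from the control by less than the counting error (ratio 1.02, 0.99 to 1.06), though scaling to total counts gave 0.887, and at 1 ng/mL the ratio was 0.951 (0.922 to 0.982). The BEAS-2B sum was below its control at 1 ng/mL (0.825, 0.795 to 0.856) and above it at 5 ng/mL (1.17, 1.13 to 1.21). Since HIST1H4C dominated these sums, they were repeated without it. The 72 other members then had a ratio of 0.985 (0.927 to 1.05) in A549 and 1.6 (1.5 to 1.71) in BEAS-2B at 5 ng/mL. Without HIST1H1C as well, the ratios at 5 ng/mL were 1.19 (1.09 to 1.29) and 1.82 (1.65 to 2.02). At 1 ng/mL the BEAS-2B sum without HIST1H4C was level with its control (1, 0.932 to 1.07), so the low sum there came from HIST1H4C. The doses differed in the same direction in each line, where 5 over 1 ng/mL gave 1.08 (1.04 to 1.11) for A549 and 1.41 (1.36 to 1.47) for BEAS-2B.

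Few members met the thresholds the study names for differentially expressed genes (DEGs), an FC of at least 2 and an ND value of at least 7. The ND value had to be reached in 1 of the 2 libraries compared, a choice made here because the study's methods do not say in which. In A549 at 5 ng/mL, 1 of 73 members was a DEG, the lower HIST1H2BD, while 9.19% of all entries were DEGs and 4.74% were lower ones. At 1 ng/mL it was again HIST1H2BD alone, against 6.41% of all entries, or 3.43% in the lower direction. In BEAS-2B no member was a DEG at 5 or 1 ng/mL, against 4.96% and 3.84% of all entries. Between 5 and 1 ng/mL there was likewise none, where 0.855% of entries in A549 and 0.221% in BEAS-2B qualified. These shares favor genes with many reads. Of the entries with a mean scaled count of at least 127, the count at an ND value of 7, 27.2% were DEGs in A549 and 15.4% in BEAS-2B at 5 ng/mL. The 4 members above that mean, HIST1H4C, HIST1H1C, HIST1H1D and HIST1H2BK, included 0 in either line. The median log2 FC at 5 ng/mL was -0.03 for these 4 and 0.18 for all 6304 such entries in A549, and 0.50 against 0.04 in BEAS-2B. Over all 73 members, and over all entries, the median log2 FC was 0.00 in every comparison, because most members had hardly any reads.

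Below the ND limit, counting intervals separated more members. Of 19 members with at least 10 counts in 1 of the A549 libraries at 5 and 0 ng/mL, 9 were higher, 3 lower and 7 had intervals that held 1. Of all entries with that many counts, 34.1% were higher and as many, 34.1%, lower. In BEAS-2B at 5 ng/mL 13 of 20 members were higher, 1 was lower and 6 held 1, against 29.5% higher and 31.0% lower of all such entries. At 1 ng/mL in A549, 2 of 16 members were higher and 3 lower, against 32.1% and 30.3% of entries. At 1 ng/mL in BEAS-2B, 4 of 19 were higher and 6 lower, against 26.9% and 29.7%. Between the doses, 11 of 20 members were higher at 5 ng/mL and 1 lower in each line, where 22.3% of entries were higher and 24.9% lower in A549 and 19% and 17.7% in BEAS-2B. An entry with more reads has a narrower interval, so these shares are not matched for level. The tallies also depend on the scaling. Total counts shift the A549 log2 ratios at 5 ng/mL by -0.21. HIST2H2AA3, HIST2H2AA4 and HIST1H2AJ, with lower limits of 1.06, 1.11 and 1.08, are then not higher in A549. The upper limits of HIST1H4C and HIST1H2BK, 1.08 and 1.09, then fall below 1. Shares over all entries were not recounted under that scaling. Across lines, 5 of all 73 members were higher than the control at 5 ng/mL in both (HIST1H1D, HIST1H2AJ, HIST1H2AI, HIST1H2BC and HIST2H2AB). HIST2H2BE was lower in both, and HIST1H1C, HIST1H2BD and HIST1H1B went opposite ways. For HIST1H1B the A549 direction rests on 1 against 7 counts, below the limit of 10 used above. The matching shares over all entries were not computed, so these counts do not show that members agree between lines more than other genes. The treated libraries of a line share 1 control, so an untypical control would move both of its comparisons.

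**Figure D4:**
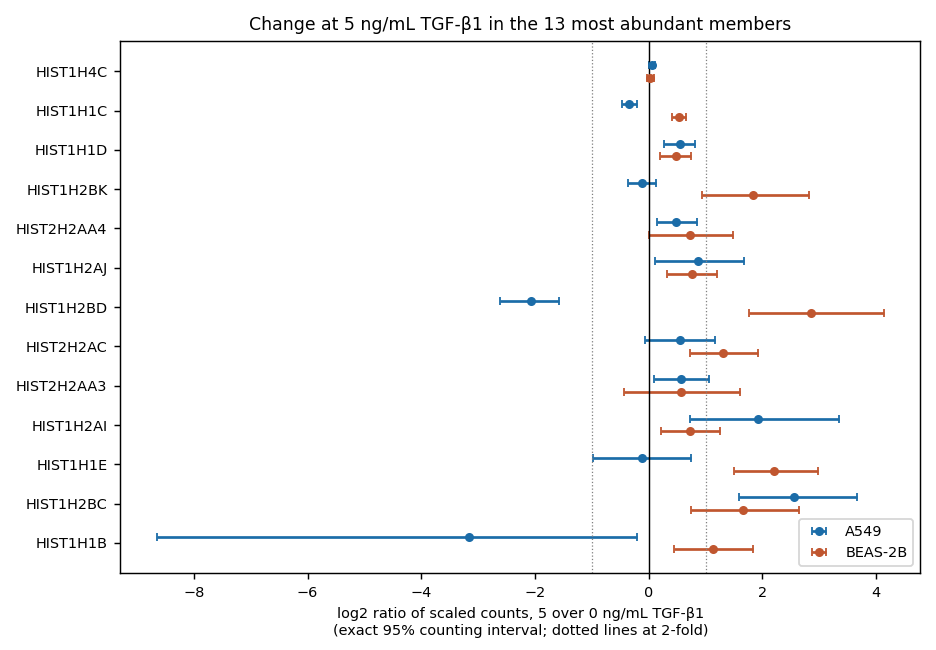
Points give the log2 ratio of scaled counts at 5 over 0 ng/mL TGF-β1 for the 13 most abundant members, with exact 95% counting intervals, in A549 and BEAS-2B (1 library per condition); dotted lines mark 2-fold. HIST1H4C sits on 0 in both lines, and HIST1H2BD lies below 0 in A549 and above 0 in BEAS-2B.

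In untreated cells, 3 of 73 members were DEGs between the lines, against 10.5% of all entries, or 5.14% that were higher in A549. HIST1H2BK, HIST2H2AA4 and HIST1H2BD were all higher in A549, by 18.3-fold, 4.12-fold (2.7 to 6.48) and 18-fold (8.91 to 42.6). Members with the reverse order stayed under the ND limit, with HIST1H2AJ 3.39-fold (2.07 to 5.8) and HIST1H2AI 7.7-fold (3.5 to 20) higher in BEAS-2B. The summed member counts hardly differed, with a ratio of A549 to BEAS-2B of 1.05 (1.01 to 1.08), and the HIST2 cluster was 2.14-fold (1.72 to 2.66) higher in A549. Fewer cells that express a gene and less RNA per cell cannot be told apart in such bulk libraries.

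The replication-independent histones were read from a list of 18 genes. H2AFX, which is on this list, is known to give mRNAs with a stem-loop end as well as polyadenylated ones. Their summed scaled counts were 13957, 18326 and 19015 in A549 and 26209, 22744 and 22180 in BEAS-2B. The clustered genes made up 34.4%, 27.6% and 28.3% of the reads of both kinds in A549 and 21.1%, 20.3% and 26.9% in BEAS-2B. DEG counts at 5 ng/mL for this and the following lists stand beside 9.19% of all entries in A549 and 4.96% in BEAS-2B. Among entries with a mean scaled count of at least 127, which most genes of each list reach, the shares were 27.2% and 15.4%. In A549 at 5 ng/mL, 2 of the 18 were DEGs upward, H1FX (2.43-fold, 2.25 to 2.64) and H2AFV (2.18-fold, 2.05 to 2.31). The 2 downward were CENPA, the histone H3 of centromeres (4.47-fold lower, 2.99 to 6.84), and H2AFY2, a macroH2A (2.63-fold lower, 1.96 to 3.55). In BEAS-2B at 5 ng/mL the only 1 was H2AFX, the H2A that is phosphorylated at DNA breaks, which was lower (0.337, 0.261 to 0.432). H2AFZ, a variant at promoters, had scaled counts of 2680, 2895 and 2279 in A549 and 9272, 6172 and 5057 in BEAS-2B. H3F3B, which encodes H3.3, had 3945, 4100 and 5040 in A549 and 6928, 6223 and 5813 in BEAS-2B. H1F0, the H1 of resting cells, had 421, 598 and 489 in A549 and 752, 614 and 484 in BEAS-2B. None of these 3 changed by 2-fold in either line.

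SLBP, which binds the stem-loops shown above and is needed to cut and translate the mRNAs without a tail, was a DEG at both doses in both lines. Its scaled counts were 160, 70.8 and 67.1 in A549 and 270, 118 and 118 in BEAS-2B. The treated libraries of each line were nearly equal and far below their control. The ratios to the control were 0.443 (0.34 to 0.575) and 0.42 (0.312 to 0.561) in A549 and 0.438 (0.345 to 0.553) and 0.439 (0.342 to 0.559) in BEAS-2B, at 1 and 5 ng/mL. Of the 28 genes found from a list of 30 for 3′ processing and decay of histone mRNA, 3 were upward and 2 downward DEGs in A549 at 5 ng/mL. Upward were CPSF3L, an endonuclease of the Integrator complex (2.74-fold, 2.03 to 3.76), the scaffold SYMPK (2.26-fold, 1.98 to 2.59) and the Sm protein SNRPB (2.11-fold, 2 to 2.22). Downward were SLBP and WDR33, a subunit that reads AATAAA (2.02-fold lower, 1.66 to 2.47). In BEAS-2B, NCBP2 of the cap-binding complex was 2.48-fold (2.09 to 2.95) higher and SLBP was the 1 lower DEG.

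Histone chaperones, which carry new histones to DNA, were covered by 22 genes with 26 rows. In A549 at 5 ng/mL, CHAF1A (2.33-fold, 1.87 to 2.91), UBN1 (2.56-fold, 2.35 to 2.79) and NAP1L4 (2.12-fold, 1.97 to 2.28) were upward DEGs and none went down. In BEAS-2B ASF1A was 3.6-fold (2.59 to 5.06) higher, and ASF1B (2.64-fold) and CHAF1B (2.16-fold) were lower. ASF1A and ASF1B, a pair of related chaperones for H3 and H4, thus had opposite directions in that line.

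Because clustered histone genes are transcribed in S phase, lists of cell cycle genes were set beside them. The 33 S phase genes summed to 9365, 11019 and 10542 scaled counts in A549 and 22871, 18232 and 16902 in BEAS-2B. In untreated cells 21 of 33 were lower DEGs in A549 and 0 were higher, where 10.5% of all entries were DEGs and 5.14% were higher ones. The clustered histone sum of untreated A549 was 1.05-fold that of BEAS-2B. In A549 at 5 ng/mL 6 were upward DEGs, among them MCM5 (3.49-fold, 2.88 to 4.25), CDT1 (2.86-fold, 2.29 to 3.61) and E2F1 (2.73-fold, 2.18 to 3.45). The 3 downward DEGs were PCNA (2.72-fold lower, 2.4 to 3.08), MCM2 (2.67-fold lower, 2.18 to 3.3) and FEN1 (0.38, 0.327 to 0.44). In BEAS-2B at 5 ng/mL 0 were upward and 3 downward, namely FEN1 (0.285, 0.256 to 0.316), CDC45 (0.339, 0.249 to 0.457) and RRM2 (0.483, 0.442 to 0.528).

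Of the 21 genes of G2 and mitosis, 5 were upward DEGs in A549 at 5 ng/mL, led by PLK1 (2.77-fold, 2.51 to 3.05) and TOP2A (2.36-fold, 2.29 to 2.43). In BEAS-2B 3 were downward DEGs at 5 ng/mL, HMGB2 (0.391, 0.354 to 0.431), CCNB2 (0.44, 0.37 to 0.521) and UBE2C (0.497, 0.456 to 0.542). The proliferation marker MKI67 had scaled counts of 1401, 1791 and 1879 in A549 and 2596, 2234 and 2348 in BEAS-2B. The share of these shifts in the histone counts was not tested.

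For the members of each list with a mean scaled count of at least 127, the median log2 FC at 5 ng/mL can be set beside that of all such entries, 0.18 in A549 and 0.04 in BEAS-2B. In A549 it was 0.31 for the replication-independent histones, 0.43 for 3′ processing, 0.38 for chaperones, 0.46 for S phase and 0.25 for G2 and mitosis. In BEAS-2B the same medians were -0.34, 0.21, -0.01, -0.18 and -0.13. At 5 ng/mL all 5 medians thus lay above that of all such entries in A549, and in BEAS-2B only that of 3′ processing did. DEGs were 27.2% of all such entries in A549 at 5 ng/mL. There the replication-independent histones had 2 upward and 0 downward of 10, and 3′ processing 3 and 2 of 25. Chaperones had 3 and 0 of 16, S phase 6 and 3 of 27, and G2 and mitosis 5 and 0 of 20. The lists were not tested against that share. At 1 ng/mL, 6 S phase genes were upward DEGs and 1 downward in A549, against 0 and 3 in BEAS-2B. Of all entries, 6.41% and 3.84% were DEGs at that dose.

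**Figure D5:**
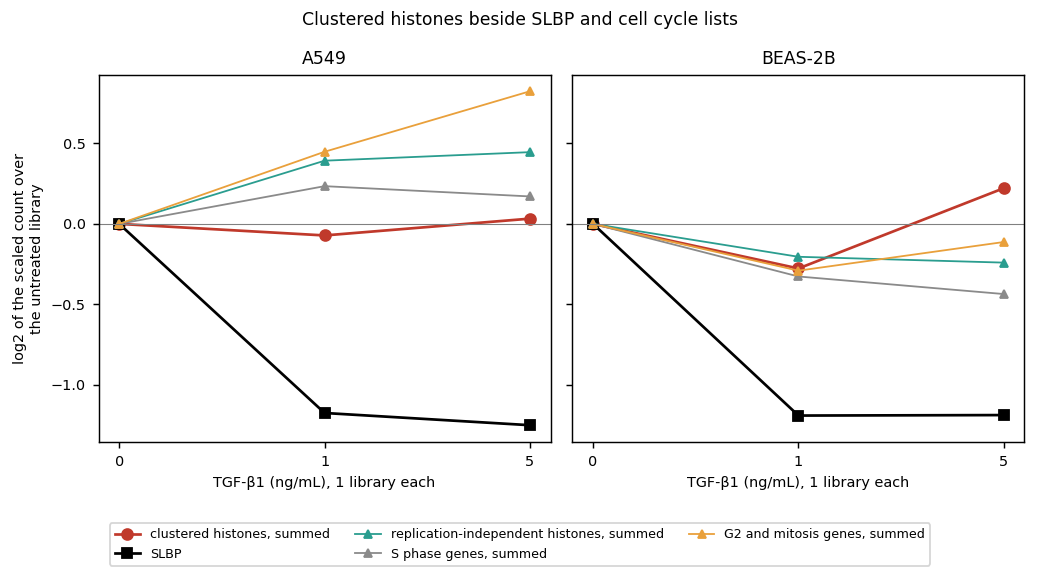
Lines give log2 of the scaled count over the untreated library of the same cell line at 0, 1 and 5 ng/mL TGF-β1 (1 library each), for the sum of the clustered histone genes, for SLBP and for the sums of 3 gene lists. SLBP is below -1 at both doses in both lines, and the clustered histone sum stays between -0.28 and 0.22. The G2 and mitosis line of A549 follows TOP2A in large part, which had 7088 of 16768 scaled counts at 0 and 16731 of 29705 at 5 ng/mL.

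The genes whose log2 scaled counts followed the summed histone level most closely over the 6 libraries, out of 8152 whose ND value reached 7 somewhere, were WDR73 (Pearson's r 0.97), ATXN3 (0.93), QDPR (0.91), NOP14-AS1 (0.90) and TFAMP1 (0.90). With 6 libraries from 2 lines and so many genes, these are a description of the shared pattern, a low value in BEAS-2B at 1 ng/mL. WDR73 had scaled counts of 129, 103 and 140 in A549 and 115, 68.6 and 146 in BEAS-2B.

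Medians of members grouped by transcript features rest on hardly any reads, so they cannot show whether a feature goes with level. Members with a stem-loop in the model had a median mean scaled count of 1.7, the same as the 34 whose model ends at the stop codon. Of the member counts, the former held 5.37% and the latter, whose 3′ ends could not be examined, 24.1%. The 5 that run past the stop codon without a stem-loop held 70.5%, nearly all through HIST1H4C. The 19 with AATAAA behind the stem-loop had a median of 2.32, and the 13 without it 1.6. Members with at least 14 A in a window had a median of 1.22 but held 71.3% of the member counts through HIST1H4C. The 14 members with more than 1 exon in a model held 1.58% of the member counts, and HIST1H2BD was the highest of them.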

How the data were processed

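Total RNA of the 6 cultures was made into QuantSeq 3′ mRNA libraries. The deposited values are whole-number read counts per gene symbol, which the authors did not normalize. The submitters' processing notes name Bowtie2, bedtools and hg19, and versions, strand setting and handling of multiply mapped reads are not given in the sources used here. Counts were scaled with TMM factors (edgeR 4.0.16, R 4.3.3) over all 25737 entries to the mean effective library size. FC used a pseudocount of 1, and ratios printed with intervals used none. DEG criteria were an FC of at least 2 and an ND value of at least 7 in 1 of the 2 libraries. Ratios carry exact 95% Clopper-Pearson intervals (scipy 1.17.1), and a count of 0 was given a floor of 3 counts. Steps were tested on simulated counts. Sequences and positions came from GENCODE release 29 on GRCh38, matched by symbol. Named genes were all members with an ND value of at least 7, the next 6 by mean, members and list genes that were DEGs (at most 6 per list), and SLBP, H1F0, H2AFZ, H3F3B and MKI67. Other members named were chosen after their values were seen, as were the A-rich windows. The members and gene lists were chosen with earlier results of these data known. Samples were grouped by their labels. Alternatives covered scaling, filters, pseudocount, thresholds and sums without abundant members.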

Additional observations from a re-analysis of the deposited data

Results flagged for a closer look

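Of the 13 most abundant members, HIST1H2BD was the 1 whose log2 FC had one sign at both doses in A549 and the other sign at both doses in BEAS-2B. Its log2 FC was -2.20 at 1 ng/mL and -2.05 at 5 ng/mL in A549, and 1.81 and 2.72 in BEAS-2B. The difference at 5 ng/mL, A549 minus BEAS-2B, was -4.77 on the log2 scale. This difference between the lines was not tested, since each condition had 1 library, and both values of a line rest on the same control. In the untreated BEAS-2B library the gene had 8 counts.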

How the results depend on the processing

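No paired analysis was possible because each condition has 1 library, and for the same reason no library could be left out of a group. DESeq2 size factors, TMM within each line and a filter on entries with at least 10 counts left each summed ratio within its counting interval. Taking the largest row per symbol could not change a summed ratio, since each member has 1 row. Scaling to total counts shifted log2 ratios at 5 and 1 ng/mL by -0.21 and -0.17 in A549 and by -0.13 in BEAS-2B at either dose. The summed ratios then became 0.887 and 0.848 in A549 and 1.07 and 0.756 in BEAS-2B. Without HIST1H1C, HIST1H2BK and HIST2H2BE the sum had a ratio at 5 ng/mL of 1.08 in A549 and 1.11 in BEAS-2B, and of 1.14 for 5 over 1 ng/mL in A549. For untreated A549 over BEAS-2B it was 0.994 (0.956 to 1.03), an interval that holds 1.

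Sums without HIST1H4C, chosen after seeing the data, gave 0.985 (A549) and 1.6 (BEAS-2B) at 5 ng/mL, 1.0 in BEAS-2B at 1 ng/mL, 1.02 and 1.6 for 5 over 1 ng/mL, and 1.25 between untreated lines. Without HIST1H1C too they were 1.19, 1.82, 1.09 (0.981 to 1.22, which holds 1), 1.27, 1.67 and 1.52. These follow from the genes removed.

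With an ND value of at least 6, the number of DEGs among the members was 2 in A549 (12.3% of all entries) and 4 in BEAS-2B (7.27%) at 5 ng/mL, 4 for 5 over 1 ng/mL in BEAS-2B (0.73%) and 5 between untreated lines (14.1%). With at least 8 it was 0 in A549 at 5 and 1 ng/mL (6.05% and 3.93%) and 1 between lines (6.91%). An FC of 1.5 gave 1 in BEAS-2B at 5 ng/mL (10.8%), and 1 in A549 (4.23%) and 2 in BEAS-2B (2.21%) for 5 over 1 ng/mL, and a pseudocount of 0.1 gave 1 for the last (0.229%). Of 483 log2 FC values of the 7 named members under these settings, 476 stayed within the counting interval, 7 moved beyond it and 0 of the DEGs changed sign. Many of the 476 could not move, since other ND and FC thresholds and the largest row per symbol leave a log2 FC unchanged. Only the other scalings, the filter and the pseudocounts could move a value. Depth limits most the 12 members with 10 to 49 counts and the 37 with 1 to 9.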
